A study of Mus musculus with 6 samples.

Results

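The transcripts examined were those of 40 genes of the mitotic spindle and the kinetochore, chosen by gene name and found in full among the 32285 genes of the count tables. They encode kinesin motors (10 genes), mitotic kinases (3), spindle checkpoint proteins (5), centromere proteins (3), the NDC80 complex (4), chromosomal passenger subunits (3), spindle microtubule proteins (8), cofactors of the anaphase-promoting complex, APC/C (2), and cytokinesis proteins (2). The rule itself uses no measured value, but the members were chosen with earlier results of these data known. The unique molecular identifiers (UMIs) of each gene were read in 4 single-cell libraries and, within tumors, in cells with 0 or with 1 or more UMIs of *Tcf7*, which encodes the transcription factor TCF1 of naive and stem-like T cells.

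CD8 T cells came from B16-OVA tumors, a mouse melanoma line that carries ovalbumin, and from the tumor-draining lymph nodes (LNs) of the same mice on day 12. Control mice carried CD8-Cre and Rosa26Tomato. CD8-IFNγRKO mice carried both of these and, in addition, IFNgR1 flox/flox, so that Cre driven by the CD8 promoter removed the IFNγ receptor from CD8 T cells and left it in the host's other cells. All 4 groups thus shared the Cre, the Tomato reporter, the tumor line and a sort for CD45, CD3, CD8 and Tomato, and each was 1 library of cells pooled from 3 mice. With 1 library per group there is no replicate, so no test was made and the 95% intervals cover counting error only.

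A dividing cell attaches its chromosomes to microtubules through kinetochores, protein assemblies built on the centromere, and a checkpoint holds the cell in metaphase until all of them are attached. APC/C then marks securin and cyclin B for destruction, the sister chromatids part, and the midzone of the spindle places the cleavage furrow. Most of these genes are transcribed in late G2 and mitosis, through a complex that reads the cell cycle genes homology region (CHR) of their promoters, often beside CCAAT boxes, and activated T cells that divide carry their transcripts while resting T cells carry few.

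The promoters of the members were read from RefSeq (GRCm38.p6), as the 250 bases before the start of the gene. Of the 40 members, 35 were matched, and *Spc24*, *Aurkb*, *Incenp*, *Kif20a* and *Tpx2* were not. The CHR letters TTTGAA, searched on both strands, lay in the window of 11 of the 35 genes (31.4%), against 18.3% of all 27025 genes with such a window. The letters CCAAT, on either strand, lay in 25 (71.4%), against 37.5% of all genes, and both lay in 9 (25.7%), against 6.45% of all genes. A match is a description of the letters and was not tested as a site.

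The promoters of 3 members are shown because they hold both motifs and belong to the genes with most UMIs in the control tumor among those with both. They are *Ube2c* (chr2:164769679-164769928, + strand), *Bub3* (chr7:131560120-131560369, + strand) and *Kif11* (chr19:37376132-37376381, + strand). Capitals mark TTTGAA and CCAAT, each on either strand (read as TTCAAA and ATTGG on the other), and the last base lies next to the start.
Ube2c: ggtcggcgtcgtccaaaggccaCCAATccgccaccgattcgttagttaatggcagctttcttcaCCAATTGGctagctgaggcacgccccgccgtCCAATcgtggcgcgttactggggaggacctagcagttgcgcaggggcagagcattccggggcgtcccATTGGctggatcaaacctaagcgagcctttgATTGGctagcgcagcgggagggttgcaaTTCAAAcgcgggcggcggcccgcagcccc
Bub3: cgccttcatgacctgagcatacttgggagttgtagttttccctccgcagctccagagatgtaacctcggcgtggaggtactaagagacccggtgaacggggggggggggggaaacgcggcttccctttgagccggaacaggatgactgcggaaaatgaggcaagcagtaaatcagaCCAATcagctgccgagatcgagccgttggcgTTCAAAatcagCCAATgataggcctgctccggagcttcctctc
Kif11: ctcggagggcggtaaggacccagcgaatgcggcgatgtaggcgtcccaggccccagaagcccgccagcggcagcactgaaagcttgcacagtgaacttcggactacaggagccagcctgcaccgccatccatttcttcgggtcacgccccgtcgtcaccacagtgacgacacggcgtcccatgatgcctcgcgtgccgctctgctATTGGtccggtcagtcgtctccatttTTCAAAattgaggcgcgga
The window of *Ube2c* holds 6 CCAAT matches, a pair of which overlap each other on opposite strands, and a CHR match 23 bases before the start. That of *Bub3* holds 2 CCAAT matches and a CHR match 37 bases before the start, and that of *Kif11* holds 1 CCAAT match and a CHR match 13 bases before the start. No CHR match overlaps a CCAAT match in the 3 windows. The same 3 genes differed in how far tumor and LN were apart, with log2 ratios in control mice of 6.02 for *Ube2c*, 0.81 for *Bub3* and 4.01 for *Kif11*, as described next.

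The libraries held 7103 control and 8636 CD8-IFNγRKO tumor cells, and 6641 control and 6731 CD8-IFNγRKO LN cells after filtering, with medians of 6308, 9402.5, 4051 and 3863 UMIs per cell. *Ifngr1*, the floxed gene, was at 718 UMIs per 1000000 of the library (CPM) in the control tumor, 237 in the CD8-IFNγRKO tumor, 182 in the control LN and 137 in the CD8-IFNγRKO LN. Its level was lower in the CD8-IFNγRKO library of both tissues, although transcript of a floxed gene can persist outside the deleted part. The CD8 T cell markers *Cd3d*, *Cd3e*, *Cd3g*, *Cd2*, *Cd8a* and *Cd8b1*, the last 3 of which the filter on cells required, summed to 5187 to 8489 CPM, whereas 10 macrophage and dendritic cell markers summed to 2.87 to 23.4 CPM, 4 B cell markers to 0.437 to 22.2 CPM and 6 melanoma markers to 2.54 to 3.92 CPM. Between 51 and 82 cell barcodes were shared by any pair of libraries (0.758 to 1.23% of a library).

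The members were far higher in tumors than in LNs. Together they held 116948 UMIs in the control tumor and 255991 in the CD8-IFNγRKO tumor, against 6997 and 7408 in the LNs, which is 1966, 2723, 234 and 257 CPM. Every member had a UMI in every library. Of the 40 members, 38 were at least 2-fold higher in tumor than in LN in control mice, against 14.6% of all 12967 genes with 20 or more UMIs, and the same number in CD8-IFNγRKO mice, against 14.8% of 13355 genes. The median log2 ratio, with 1 CPM added, was 3.23 in control and 3.76 in CD8-IFNγRKO mice, and that of all genes was -0.01 and 0.00. In both genotypes, *Bub3* and *Kif23* were the members under 2-fold. Tumors were digested with enzymes whereas LNs were pressed through a strainer, so that tissue and preparation cannot be told apart. Macrophage and dendritic cell markers moved with the tissue, with 10 of 10 and 9 of 10 detected in the tumors (23.4 and 19.8 CPM) and 8 and 5 in the LNs (2.87 and 3.29 CPM). Melanoma markers moved with it in part, and *Mitf* went the other way, with 0.54 and 0.39 CPM in the tumors. All 6 were detected in both tumors (3.92 and 2.72 CPM), whereas in the LNs *Mitf* made up 2.34 of 2.54 and 2.29 of 2.77 CPM and the pigment cell genes *Tyrp1* and *Sox10* were at 0. The part of the melanoma markers in the result was not tested. Barcodes that held 3 or more macrophage and dendritic cell markers numbered 12 and 9 in the tumors and 1 and 0 in the LNs. Leaving out so few could hardly move the pooled ratios, and 38 members were again past 2-fold in both genotypes. The part of the macrophage and dendritic cell markers in the result was not tested.

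Other cell division genes were set beside the members. Of 64 other mitotic genes, 47 were at least 2-fold higher in control tumor than LN and 49 in CD8-IFNγRKO mice, with medians of 1.98 and 2.57. Of 35 DNA replication genes, 24 and 30 were, with medians of 1.32 and 2.08. These lists were not tested against the members.

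**Figure D1:**
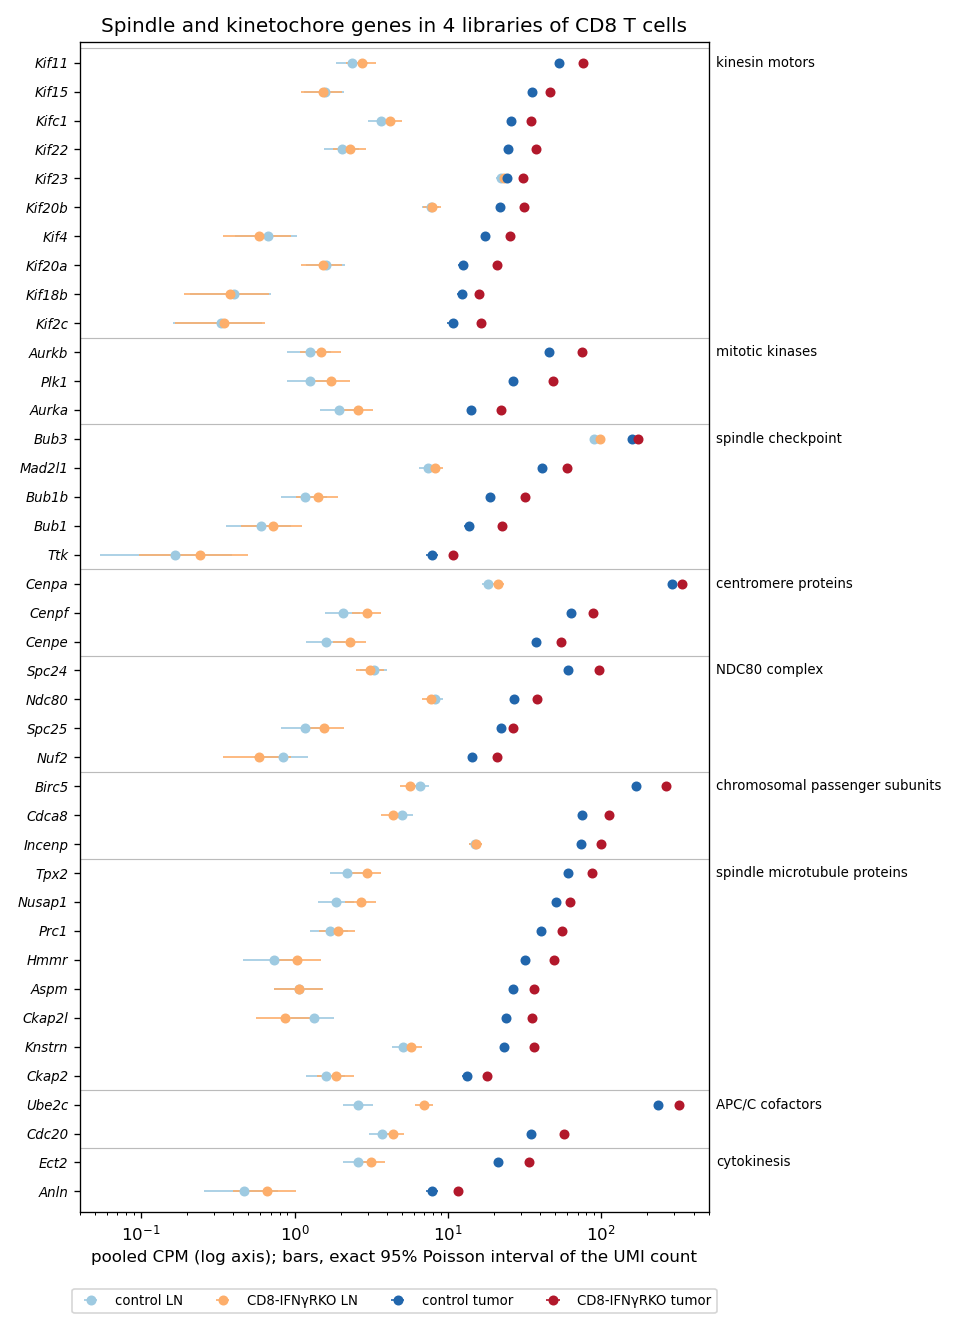
Pooled CPM (log axis) of the 40 members, grouped by role, in the LN and tumor libraries of control and CD8-IFNγRKO mice; bars are exact 95% Poisson intervals of the UMI counts. Tumor points stand well to the right of LN points for all members but Bub3 and Kif23, and the CD8-IFNγRKO tumor point lies to the right of the control tumor point in all 40.

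Among the kinesin motors, which use ATP to walk along microtubules or take them apart, the sum was 238 CPM in the control tumor, 336 in the CD8-IFNγRKO tumor, 42.6 in the control LN and 44.6 in the CD8-IFNγRKO LN. *Kif11*, the motor that pushes the spindle poles apart, was at 53.2, 75.7, 2.37 and 2.74 CPM in the same order. *Kif15*, which can stand in for it, was at 35.2, 46.5, 1.57 and 1.53 CPM. Both were over 10-fold higher in either tumor than in its LN. The lowest in LNs were *Kif2c*, which takes microtubule ends apart, with 10 UMIs in each LN library, and *Kif18b*, which shortens astral microtubules, with 12 and 11. *Kif4* and *Kif22*, which bind chromosome arms, *Kifc1*, which draws poles together, and *Kif20a* and *Kif20b*, which act in cytokinesis, ranged from 12.5 to 25.7 CPM in the control tumor and from 0.59 to 7.87 CPM in LNs.

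*Kif23*, a subunit of centralspindlin at the spindle midzone, did not follow the other motors. It was at 24.3 CPM in the control tumor and 31.1 in the CD8-IFNγRKO tumor, and at 22.2 and 23.2 CPM in the LNs. The log2 ratio of tumor over LN was 0.12 (interval 0.00 to 0.25) in control and 0.41 (0.29 to 0.53) in CD8-IFNγRKO mice. With each cell thinned to 1600 UMIs, it turned to -0.54 (-0.84 to -0.25) in control mice and was 0.15 (-0.08 to 0.38) in CD8-IFNγRKO mice. In the LNs its UMIs were spread over many cells: 8.75% of control and 9.03% of CD8-IFNγRKO LN cells held one, and the 10 cells with most held 6.17% and 4.94% of its UMIs. Several other members were spread in the same way in the control LN, where the 10 cells with most held 2.04% of the UMIs of *Bub3*, 9.05% of *Kif20b*, 9.87% of *Mad2l1* and 10.6% of *Ndc80*. The 10 cells with most *Aurkb* held 71.1% and 79.1% of its LN UMIs, those with most *Cenpf* 80.6% and 80.0%, and those with most *Ube2c* 69.2% and 90.1%. This share is raised where UMIs are few, and *Aurkb* had 38 UMIs in the control LN against 664 of *Kif23*.

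The mitotic kinases set off and time the steps of mitosis by phosphorylation. *Plk1*, which drives centrosome maturation and mitotic entry, was at 26.6 CPM in the control tumor, 48.6 in the CD8-IFNγRKO tumor, 1.27 in the control LN and 1.73 in the CD8-IFNγRKO LN. *Aurkb*, the kinase of the chromosomal passenger complex, was at 45.6, 75.2, 1.27 and 1.49 CPM. *Aurka*, the kinase of the spindle poles, was at 14.2, 22.1, 1.94 and 2.60 CPM. All 3 were past 1.5-fold higher in the CD8-IFNγRKO tumor, against 4.7% of all 13341 genes. None was between the LNs, where 0.273% of all 12076 genes were past 1.5-fold higher.

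Of the checkpoint genes, *Bub3*, an adaptor that brings *Bub1* and *Bub1b* products to kinetochores, was the most even across libraries. It was at 158.9 CPM in the control tumor, 173.8 in the CD8-IFNγRKO tumor, 90.3 in the control LN and 97.6 in the CD8-IFNγRKO LN, and it held 38.6% and 38.0% of the members' UMIs in LNs. The log2 ratio of tumor over LN was 0.81 (0.75 to 0.87) in control and 0.83 (0.77 to 0.88) in CD8-IFNγRKO mice. *Bub1b*, which encodes BubR1 of the checkpoint complex that holds back APC/C, behaved otherwise, with 18.8, 31.6, 1.17 and 1.42 CPM. The kinase genes *Bub1* and *Ttk*, and *Mad2l1*, which encodes MAD2, were at 7.85 to 41.2 CPM in the control tumor and at 0.17 to 8.22 CPM in LNs. *Ttk* was the scarcest member, with 5 and 7 UMIs in the LNs.

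*Cenpa*, the histone H3 variant that marks the centromere, was at 291 CPM in the control tumor, 335 in the CD8-IFNγRKO tumor, 18.2 in the control LN and 21.3 in the CD8-IFNγRKO LN. *Cenpe*, a kinetochore motor, was at 37.4 and 54.6 CPM in the tumors, with 48 and 66 UMIs in the LNs, and *Cenpf*, a large protein of the outer kinetochore, at 63.3 and 88.7 CPM, with 62 and 85 UMIs in the LNs. The NDC80 complex grips the microtubule end and has 4 subunits, made by *Ndc80*, *Nuf2*, *Spc24* and *Spc25*. Their sum was 125, 182, 13.5 and 13.0 CPM. In LNs *Ndc80* made up most of that sum, with 245 of 404 UMIs in control and 223 of 375 in CD8-IFNγRKO mice, whereas in tumors *Spc24* was the most abundant, with 61.1 and 97.1 CPM. The 4 subunits therefore did not keep 1 ratio between tissues.

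The chromosomal passenger subunits stand next to *Aurkb* at the inner centromere. *Birc5*, which encodes survivin, was at 167 CPM in the control tumor, 266 in the CD8-IFNγRKO tumor, 6.55 in the control LN and 5.69 in the CD8-IFNγRKO LN. It had the second largest tumor to LN ratio of the members in both genotypes, log2 4.48 and 5.32. *Cdca8*, which encodes borealin, was at 74.7, 113, 5.01 and 4.37 CPM. *Incenp*, the scaffold, held 4416, 9400, 453 and 437 UMIs, which in the LNs is more than the UMIs of *Birc5* and *Cdca8* together.

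The 8 spindle microtubule proteins summed to 270.3 CPM in the control tumor, 380.0 in the CD8-IFNγRKO tumor, 15.6 in the control LN and 18.2 in the CD8-IFNγRKO LN. *Tpx2*, which activates Aurora A at microtubules, was at 60.9, 86.4, 2.20 and 2.98 CPM. *Hmmr*, a spindle pole protein, was at 32.0, 49.3, 0.73 and 1.04 CPM. *Prc1*, which crosslinks the midzone, *Nusap1*, which bundles microtubules near chromosomes, *Aspm*, which focuses the poles, and *Ckap2*, *Ckap2l* and *Knstrn*, which bind spindle microtubules, were at 13.2 to 50.4 CPM in the control tumor and at 0.87 to 5.79 CPM in LNs.

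*Ube2c*, the E2 enzyme that works with APC/C, was the member with the widest tissue difference in control mice. It was at 234 CPM in the control tumor, 322 in the CD8-IFNγRKO tumor, with 78 UMIs in the control LN and 202 in the CD8-IFNγRKO LN. *Cdc20*, which activates APC/C, was at 34.9, 57.0, 3.71 and 4.37 CPM. Of the cytokinesis genes, *Ect2*, which switches on RhoA at the furrow, was at 21.2, 33.8, 2.61 and 3.16 CPM, and *Anln*, which encodes the furrow scaffold anillin, at 7.93, 11.6, 0.47 and 0.66 CPM.

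Next, the 2 tumors were compared, which asks how CD8 T cells that lack the receptor differ at the tumor. All 40 members were higher in the CD8-IFNγRKO tumor than in the control tumor, whereas 52.7% of 13341 genes were higher by any size. The counting interval lay above 0 for each of the 40, and the share of all genes with such an interval was not counted. Of them, 14 were past 1.5-fold, against 4.7% of the same genes, and 0 were lower by that much. The median log2 ratio was 0.52, and that of all genes 0.02. *Plk1* led with 0.85 (0.77 to 0.93), followed by *Bub1b* at 0.72 (0.63 to 0.82) and *Aurkb* at 0.71 (0.65 to 0.77). The others past 1.5-fold were *Cdc20*, *Kif20a*, *Bub1*, *Birc5*, *Spc24*, *Ect2*, *Knstrn*, *Hmmr*, *Aurka*, *Kif22* and *Cdca8*, the last of them at 0.59 (0.54 to 0.64), just inside. *Kif2c*, at 0.58 (0.45 to 0.70), was just outside. The smallest differences were in *Bub3* at 0.13 (0.09 to 0.17), *Cenpa* at 0.20 (0.18 to 0.23) and *Spc25* at 0.24 (0.15 to 0.33). Other measures moved with genotype in the tumors. The CD8 T cell markers went from 8489 CPM in the control to 6373 CPM in the CD8-IFNγRKO tumor, and the 4 B cell markers from 0.437 CPM (26 UMIs, 2 of 4 detected) to 2.10 CPM (197 UMIs, 3 of 4 detected), of which *Cd79b* held 195 UMIs. The macrophage and dendritic cell markers were at 23.4 and 19.8 CPM, and the median depth was 6308 and 9402.5 UMIs. The part of these markers in the result was not tested, and ratios within ranges of depth are given later.

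The count past 1.5-fold moved with how cells were weighed, whereas all 40 stayed above 0 in each alternative except the ranges of depth given later, and in cells with a cyclin B UMI most lay below it. It was 28 when each cell counted alike, 30 when each cell was thinned to 1600 UMIs, 24 without the 8% of barcodes with most UMIs and 4 with 10 CPM added. Thinned, the members summed to 1427 CPM in the control tumor and 2226 in the CD8-IFNγRKO tumor, a log2 ratio of 0.64 (0.61 to 0.67), against 0.47 (0.46 to 0.48) in all cells. The members were not alone in this: 26 of the 64 other mitotic genes (median 0.55) and 24 of the 35 DNA replication genes (median 0.73) were past 1.5-fold. Among the other mitotic genes the highest were *Cenph* (0.98), *Trip13* (0.86) and *Nsl1* (0.85). The lowest were *Kif3a*, mainly a transport kinesin (-0.19), *Pttg1*, which encodes securin (-0.14), and *Cenpc1* (-0.06, interval -0.16 to 0.04).

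In the LNs the pooled ratios lay nearer to 0. Of 39 members with 20 or more UMIs, 1 was past 1.5-fold, against 0.273% of 12076 genes. The median log2 ratio was 0.13, and that of all genes 0.02. Of the 39 members, 29 lay above 0, as did 6903 of the 12076 genes. Without the 8% of barcodes with most UMIs, 26 members passed the minimum, and their median was 0.03 against 0.02 for all genes. The intervals of 35 of the 40 held 0, and those of *Bub3*, *Cenpa*, *Cenpf*, *Nusap1* and *Ube2c* lay above it. For all genes, intervals were not counted in the LNs. The gene past the fold was *Ube2c*, at 1.15 (0.85 to 1.45), with 202 UMIs in the CD8-IFNγRKO LN and 78 in the control LN. Its UMIs lay in few cells, 26 and 31, and 1 CD8-IFNγRKO cell alone held 52. Without the LN cells of 8000 UMIs or more (295 CD8-IFNγRKO and 410 control cells left out, an alternative chosen after seeing the data), it had 14 and 13 UMIs and a log2 ratio of 0.03. By depth, the log2 ratio of the summed members was 0.23 (-0.34 to 0.78) in LN cells under 2000 UMIs, 0.09 (0.00 to 0.18) from 2000 to under 4000 and 0.06 (-0.02 to 0.13) from 4000 to under 8000. It was 0.73 (0.63 to 0.83) from 8000 to under 16000, in 290 CD8-IFNγRKO and 391 control cells, and 1.19 (1.01 to 1.36) at 16000 or more, in 5 and 19 cells. The deep LN cells thus held more of the members, relative to all their UMIs, in CD8-IFNγRKO mice, on few cells. A single CD8-IFNγRKO LN cell held 355 of the 7408 member UMIs of its library, and a single control LN cell 180 of 6997. The number of cells went the other way only without thinning. There, 31 of 6731 CD8-IFNγRKO and 48 of 6641 control LN cells had 5 or more members detected. With each cell thinned to 1600 UMIs, 13 of 6690 CD8-IFNγRKO and 11 of 6404 control LN cells had as many. Thinned to 3000 UMIs, 17 of 5520 CD8-IFNγRKO and 17 of 5544 control LN cells had. For single members, whether the genotypes differed in the LNs by less than the width of these intervals was not detectable at this depth.

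**Figure D2:**
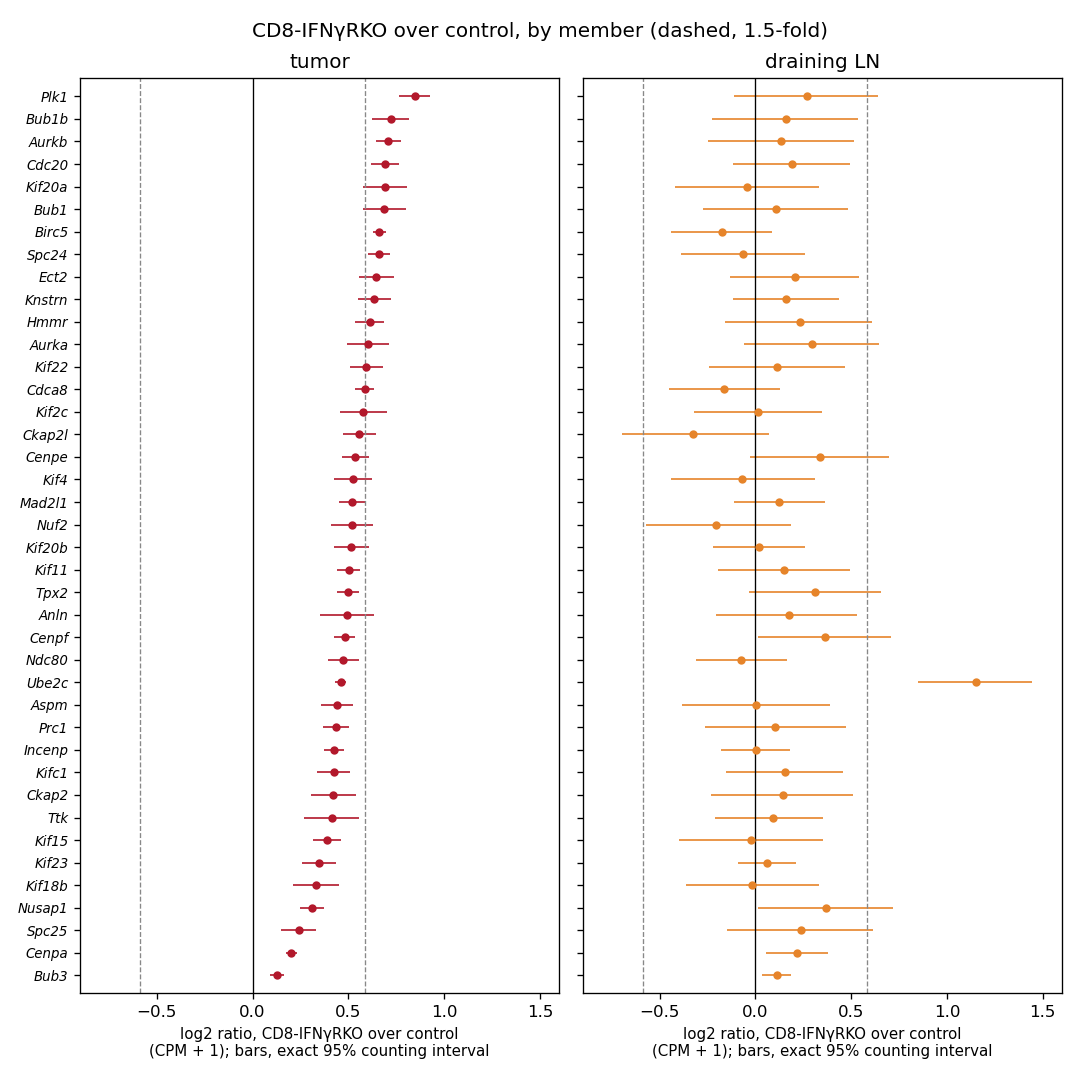
Log2 ratio of CD8-IFNγRKO over control, with 1 CPM added, for the 40 members in tumor (left) and draining LN (right), ordered by the tumor ratio; bars are exact 95% counting intervals and dashed lines 1.5-fold. All 40 tumor intervals lie above 0, whereas 35 LN intervals hold 0 and Ube2c stands apart.

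The tumor difference was followed into single cells, each thinned to 1600 UMIs, which left out 701 control and 278 CD8-IFNγRKO tumor cells and 237 and 41 LN cells as too shallow. Cells with 5 or more of the 40 members detected made up 13.8% (12.9 to 14.6) of control tumor cells and 24.1% (23.2 to 25.1) of CD8-IFNγRKO tumor cells. In LNs, at the same depth, they made up 0.172% (11 of 6404) and 0.194% (13 of 6690). The LNs are separate libraries and give no background for free RNA in the tumors. Cells with 0 members made up 42.8% and 26.9% of the tumor cells, and 74.2% and 72.9% of the LN cells. Without thinning, cells with 5 or more members were 28.8% and 55.8% of tumor cells and 0.723% and 0.461% of LN cells.

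**Figure D3:**
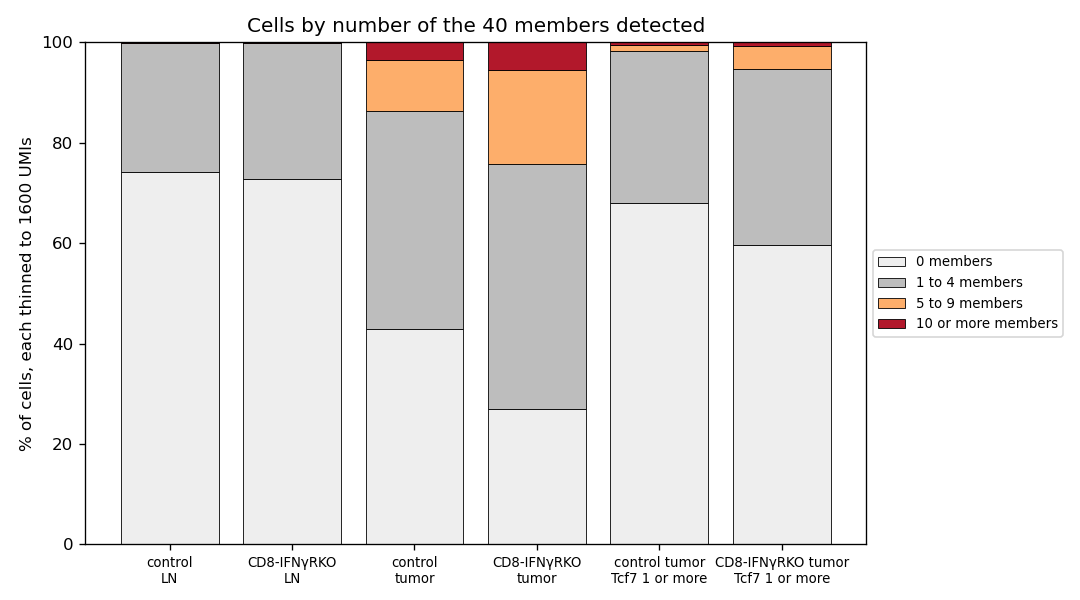
Shares (%) of cells, each thinned to 1600 UMIs, with 0, 1 to 4, 5 to 9 and 10 or more of the 40 members detected, in the 4 libraries and in tumor cells with 1 or more Tcf7 UMIs. Cells with 5 or more members made up 13.8% of control and 24.1% of CD8-IFNγRKO tumor cells and under 0.2% of LN cells.

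Single members showed the same order at this depth. *Birc5* was detected in 12.5% of control and 23.6% of CD8-IFNγRKO tumor cells, *Ube2c* in 11.9% and 20.8%, and *Plk1* in 2.78% and 5.35%. *Bub3* was detected in 19.7% and 21.0% of tumor cells and in 13.0% of control LN cells, so that a UMI of *Bub3* set tumor cells apart from LN cells far less. The melanoma genes *Pmel* and *Mlana* were each detected in 0.156% of control tumor cells, and in 0.060% and 0.108% of CD8-IFNγRKO tumor cells. In the LNs *Pmel* was detected in 0.016% of control and 0.045% of CD8-IFNγRKO cells, and *Mlana* in 0% and 0.015%. *Dct*, *Tyrp1* and *Sox10* were detected in 0.109%, 0.141% and 0.047% of control tumor cells. In the CD8-IFNγRKO tumor these were 0.084%, 0.108% and 0.012%, and in either LN at most 0.015%. *Mitf* went the other way by tissue. It was detected in 0.047% of control and 0.096% of CD8-IFNγRKO tumor cells, against 0.297% and 0.194% of LN cells. The tumor shares rest on 3 and 8 cells, and their intervals overlap (0.010 to 0.137 and 0.041 to 0.189). The pooled level of *Mitf* was 0.54 CPM in the control and 0.39 CPM in the CD8-IFNγRKO tumor.

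The cyclin B genes *Ccnb1* and *Ccnb2*, which are not members, were used to divide the thinned tumor cells. A cyclin B UMI was found in 9.51% (8.80 to 10.3) of control and 18.7% (17.9 to 19.6) of CD8-IFNγRKO tumor cells, and in 0.156% and 0.209% of LN cells. All 40 members were higher in cells with such a UMI than in cells without one in both tumors, against 47% of 10095 genes in the control and 46.6% of 10490 in the CD8-IFNγRKO tumor, with median log2 ratios of 2.53 and 1.39. *Cdc20* was the most concentrated, with 166 against 12.5 CPM in the control tumor (log2 3.63) and 129 against 27.2 CPM in the CD8-IFNγRKO tumor (log2 2.21). *Bub3* was the least, at log2 1.02 and 0.72.

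The genotypes were then compared within each class of cells. In cells without a cyclin B UMI, the members summed to 991 CPM in the control tumor and 1661 in the CD8-IFNγRKO tumor, and all 40 were higher in CD8-IFNγRKO (median log2 0.93), against 54.8% of 10920 genes. The interval lay above 0 for 39 of them. *Plk1* was again the highest, at 1.24 (0.93 to 1.56), and *Bub3* the lowest, at 0.07 (-0.04 to 0.18). In cells with a cyclin B UMI, they summed to 5582 CPM in the control tumor and 4672 in the CD8-IFNγRKO tumor, and 7 of the 40 were higher in CD8-IFNγRKO (median -0.23), against 52% of 8595 genes. The interval lay below 0 for 12 members and above it for 0, and it held 0 for the other 28. In neither class was the share of all genes with such an interval counted. The difference between the classes was not tested. *Nusap1* was the lowest there, at -0.83 (-1.12 to -0.53), and *Kif20a* the highest, at 0.52 (-0.11 to 1.18). A cell with no cyclin B UMI at 1600 UMIs may still express it, and how far missed cyclin B enters either value was not tested. The classes also differed in depth before thinning. Cells without a cyclin B UMI had medians of 6572 UMIs in the control and 9078 in the CD8-IFNγRKO tumor. Cells with one had medians of 12070 and 12646. The part of depth in these ratios was not tested.

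**Figure D4:**
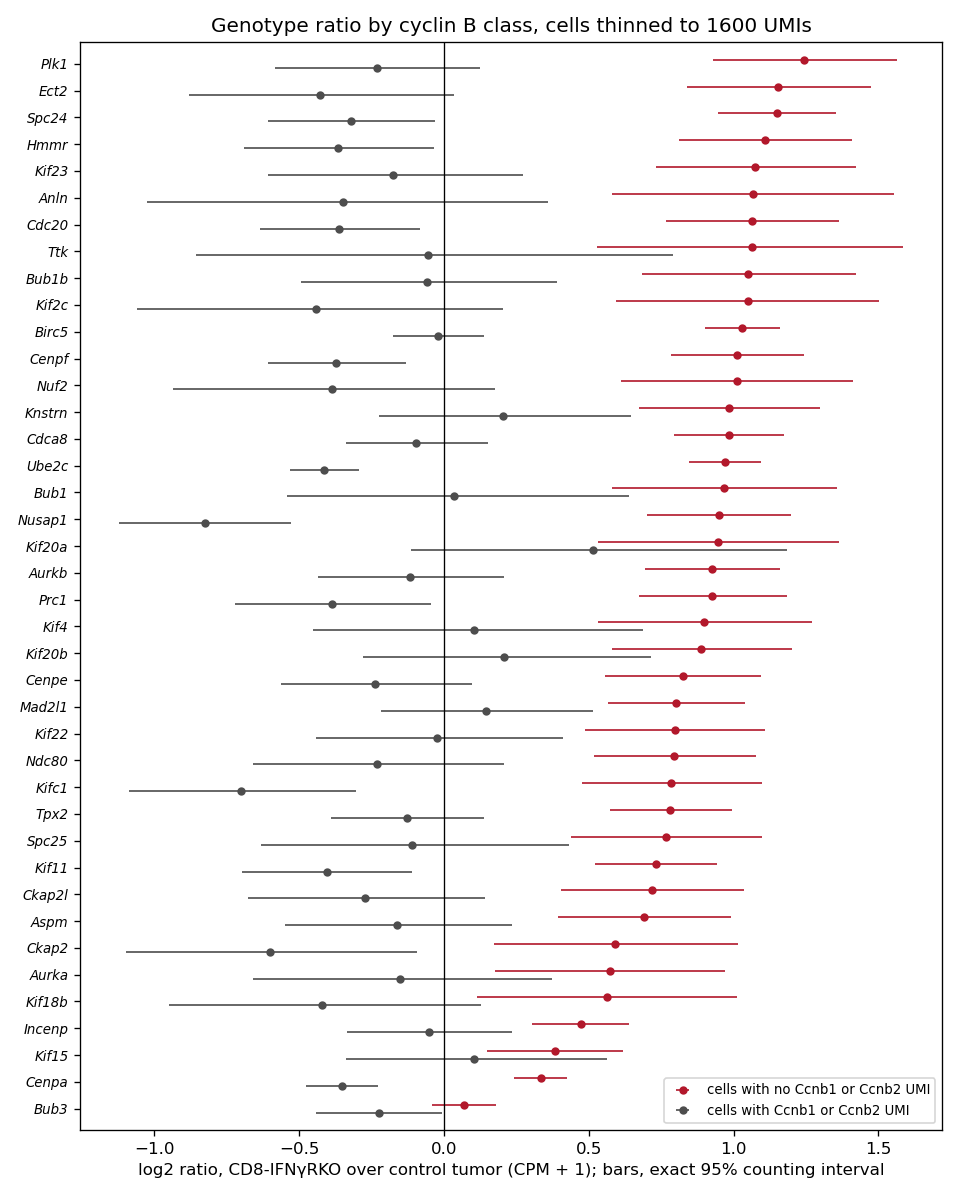
Log2 ratio of CD8-IFNγRKO over control tumor for the 40 members in cells with and without a Ccnb1 or Ccnb2 UMI, each cell thinned to 1600 UMIs, with exact 95% counting intervals. In cells without such a UMI all 40 points lie above 0 (median 0.93), whereas in cells with one 7 lie above it (median -0.23).

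Within tumors, cells with a *Tcf7* UMI carried less of the members. There were 372 such cells and 6731 cells with 0 in the control tumor, and 837 and 7799 in the CD8-IFNγRKO tumor. The members summed to 1186 CPM in cells with *Tcf7* and 2003 in cells without it in the control tumor, and to 1711 and 2789 in the CD8-IFNγRKO tumor. All 40 were lower in cells with *Tcf7* in both, against 53.7% of 12069 genes in the control and 53.1% of 12692 in the CD8-IFNγRKO tumor. In the control tumor 27 were lower by 1.5-fold or more, against 8.58% of these genes, and in the CD8-IFNγRKO tumor 29 were, against 7.74%. The median log2 ratios were -0.74 and -0.67. The intervals of 5 members in the control tumor (*Kif20b*, *Kif23*, *Bub1*, *Bub1b* and *Anln*) and of 3 in the CD8-IFNγRKO tumor (*Kif23*, *Ttk* and *Anln*) held 0.

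*Ube2c* was the most different of the abundant members, with 105 CPM in cells with *Tcf7* and 240.0 in cells without it in the control tumor, log2 -1.19 (-1.36 to -1.02), and 169 and 332 CPM in the CD8-IFNγRKO tumor, log2 -0.97 (-1.06 to -0.88). *Kif18b* reached -1.46 (-2.21 to -0.74) in the control tumor, on 11 UMIs in cells with *Tcf7*. *Kif23* was the closest in the CD8-IFNγRKO tumor, at 29.2 and 31.2 CPM. Of the DNA replication genes, 3 of 35 in the control tumor and 13 in the CD8-IFNγRKO tumor were lower by 1.5-fold, with medians of -0.27 and -0.52. Of the 64 other mitotic genes, 19 and 27 were, with medians of -0.39 and -0.54. The medians of both lists lay nearer to 0 than the members' medians, and the lists were not tested against the members.

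Depth moved with this result. A *Tcf7* UMI is found more readily in a deep cell, yet the cells with one were shallower, with medians of 4562.5 against 6394 UMIs in the control tumor and 4521 against 9901 in the CD8-IFNγRKO tumor. Thinned to 1600 UMIs with *Tcf7* read afterwards, the members summed to 370.2 against 1459 CPM in the control tumor. In the CD8-IFNγRKO tumor they summed to 646 against 2314 CPM, and the median log2 ratios of both tumors fell to -2.06 and -1.85. Thinned, 1 of the 40 members was higher in cells with *Tcf7* in the CD8-IFNγRKO tumor, and 0 were in the control tumor. Thinning also changed the cells compared, as 184 and 441 held a *Tcf7* UMI in place of 372 and 837. With 2 or more *Tcf7* UMIs as the limit and no thinning, the medians were -1.26 and -0.68. The part of depth alone was not tested. Of these thinned cells with *Tcf7*, 3 of 184 (1.63%) in the control and 23 of 441 (5.22%) in the CD8-IFNγRKO tumor had 5 or more members detected, against 14.1% and 25.2% of cells with 0. Within ranges of UMIs per cell, which were added after seeing the data, the log2 ratio of the summed members was between -1.84 and -0.42 in the control tumor. In the CD8-IFNγRKO tumor it was between -1.75 and -0.78 in cells under 16000 UMIs and -0.02 (-0.06 to 0.01) in the 84 and 1831 cells at 16000 or more.

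The genotypes also differed within each *Tcf7* class. Among cells with *Tcf7*, 20 members were past 1.5-fold higher in CD8-IFNγRKO, against 6.19% of 10025 genes, and all 40 lay above 0 against 55% of these genes (median 0.59). The intervals of 31 members lay above 0, and the share of all genes with such an interval was not counted. *Ect2* was at 10.2 CPM in control and 22.0 in CD8-IFNγRKO cells, log2 1.03 (0.47 to 1.62), and *Plk1* at 14.6 and 30.2 CPM, log2 1.00 (0.52 to 1.49). Among cells with 0 *Tcf7* UMIs, 14 members were past 1.5-fold, against 4.88% of 13213 genes, and all 40 lay above 0, against 52.2% (median 0.51). By depth, the log2 genotype ratio of the summed members in cells with *Tcf7* was 1.18 (0.43 to 2.03) under 2000 UMIs. It was 1.00 (0.67 to 1.34) from 2000 to under 4000 and 1.35 (1.11 to 1.59) from 4000 to under 8000. From 8000 to under 16000 it was 0.27 (0.16 to 0.39), and above that 0.64 (0.57 to 0.71). There, 42 of 372 control cells held 2108 of 3239 member UMIs, and 84 of 837 CD8-IFNγRKO cells 6103 of 9806. Whether the genotype ratio differed between the *Tcf7* classes was not tested.

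**Figure D5:**
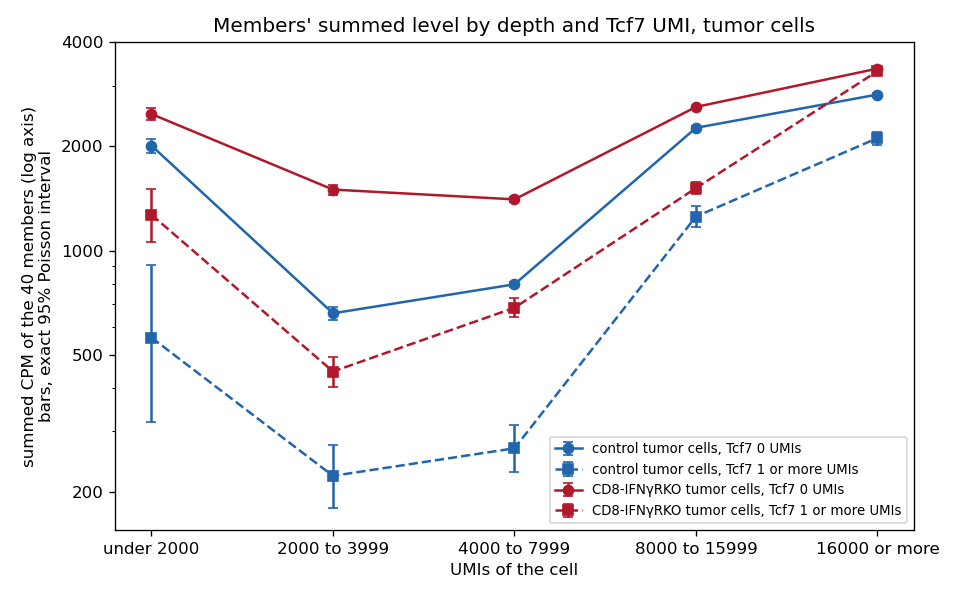
Summed CPM of the 40 members (log axis) by UMIs of the cell, in control and CD8-IFNγRKO tumor cells with 0 or with 1 or more Tcf7 UMIs; bars are exact 95% Poisson intervals. Cells with Tcf7 lie below cells without it, except that the CD8-IFNγRKO points nearly meet at 16000 UMIs or more, and all 4 lines are lowest from 2000 to under 8000 UMIs.

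The genotype ratio itself varied with depth. The log2 ratio of the summed members in tumors was 0.27 (0.18 to 0.36) in cells under 2000 UMIs, 1.00 (0.92 to 1.08) from 2000 to under 4000, 0.76 (0.72 to 0.79) from 4000 to under 8000, 0.20 (0.18 to 0.21) from 8000 to under 16000 and 0.27 (0.25 to 0.28) above. In these ranges 33, 39, 39, 37 and 39 of the 40 members were higher in the CD8-IFNγRKO tumor. Of all genes with 20 or more UMIs in the range, 54.6%, 56.5%, 57.7%, 53.4% and 52.4% were higher. Under 2000 UMIs, 39 members passed that minimum, and 32 of these were higher. The intervals of 7, 35, 39, 28 and 36 members lay above 0, and under 2000 UMIs 1 lay below it. For all genes, intervals were not counted in these ranges. Within each tumor, all 40 members were higher in cells under 2000 UMIs than in those from 2000 to under 4000, as were 58.2% of 8979 genes in the control and 59.2% of 9195 genes in the CD8-IFNγRKO tumor, and 35 and 40 members passed the minimum of 20 UMIs. Cells of 8000 UMIs or more were 38.0% of control and 57.5% of CD8-IFNγRKO tumor cells, and their share in the difference over all cells was not tested.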

How the data were processed

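Sorted CD8 T cells of 4 libraries, each from 3 pooled mice, were used. The authors mapped reads with Cell Ranger 6.0.0 to the mouse genome mm10 (per the submitters' processing notes and the study's methods) and deposited, for barcodes called cells, UMI counts per gene that were not normalized. The 5′ kit counts each molecule once, so CPM were not divided by length. TCR sequencing of the 2 tumor libraries was not used here.

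Analysis used Python 3.11.15 with matplotlib 3.10.9, pandas 2.3.3, scipy 1.17.1 and numpy 2.4.6. A barcode was kept if it had a UMI of *Cd8a*, of *Cd8b1* and of *Cd2*, between 200 and 6000 genes, no more than 3% of UMIs from mitochondria and no more than 20% from a single gene. Doublets were not called, and an alternative left out the 8% of barcodes with most UMIs. Barcodes with 3 or more macrophage and dendritic cell markers (0 to 12 per library) were kept, and an alternative left them out.

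UMIs were summed over cells and divided by the library's total (CPM). Log2 ratios had 1 CPM added, which understates the change of low genes. Genes with 20 or more UMIs over both sides were counted, past 2-fold between tissues and 1.5-fold otherwise, over 8 comparisons. Intervals were exact at 95% (Clopper-Pearson for a share, Poisson for a CPM and conditional binomial for a ratio). UMI totals of 28841136 to 93995655 per library set the precision, and intervals cover counting error only. Members were also counted by where their intervals lay, and the share of all genes with such intervals was not counted. For values per cell, each cell was thinned to 1600 UMIs and shallower cells were left out. The scripts were tested on simulated data.

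The members and gene lists were chosen with earlier results of these data known. All 40 members were named by role, and of the other mitotic genes the 3 highest and 3 lowest tumor genotype ratios with 100 or more UMIs. Promoters were shown for the 3 members highest in the control tumor that held both motifs. Alternatives changed the pseudocount (10 CPM), minimum of UMIs, fold, library size, weight and depth of cells and the *Tcf7* limit.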

Additional observations from a re-analysis of the deposited data

How the results depend on the processing

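No paired analysis was possible because each group was 1 library, so no library could be left out either. Shifted counts of members are given beside the value in the report. The shares of all genes past the fold belong to the main setting, so the shifted counts have no such share beside them. For CD8-IFNγRKO over control in tumors (14), the number past 1.5-fold higher was 36 with a log2 limit of 0.32 in place of 0.58, 28 with the mean of cell CPM, 4 with 10 CPM added, 30 thinned and 24 without the deepest 8% of barcodes. In cells with 0 *Tcf7* UMIs (14), it was 35, 29, 5, 32 and 25 in the same order. In cells with *Tcf7* (20), it was 35 with the lower limit, 34 with 2 or more *Tcf7* UMIs, 8 with 10 CPM added, 5 thinned (of 6 members tested) and 31 without the deepest 8%. In LNs (1), it was 4 with the lower limit, 0 with 10 CPM added and 0 without the deepest 8%, and 1 member was lower with the lower limit. The median of members in LNs turned from 0.13 to -0.030 when thinned, with 23 tested. For cells with against without *Tcf7*, the number lower fell to 16 in the control tumor (27) and 14 in the CD8-IFNγRKO tumor (29) with 10 CPM added, and to 19 in the latter without ribosomal, mitochondrial, heat shock and TCR genes in the library size. That library size moved the median of all genes in tumor over LN from -0.01 to -0.24 in control mice, and the members' median was then 3.31.

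Shares of cells with a cyclin B UMI in the control tumor, CD8-IFNγRKO tumor, control LN and CD8-IFNγRKO LN were 23.8%, 46.3%, 0.527% and 0.461% without thinning, and 8.14%, 17.6%, 0.0681% and 0.0975% without the deepest 8%. Thinned to 3000 UMIs they were 15.1% and 28.5% in tumors. Shares with 5 or more members were 28.8%, 55.8%, 0.723% and 0.461% without thinning, and 11.8%, 22.3%, 0.0341% and 0.0488% without the deepest 8%, and 20.6% and 37.3% in tumors at 3000 UMIs. The causes were not tested. Of the other values, 148 counts and shares and 63 medians were classed as the same, and 11 medians kept their sign but were classed as moved. Thinned, the genotype median in tumors was 0.75 (0.52) and with 0 *Tcf7* UMIs 0.77 (0.51), and the medians for *Tcf7* were -2.06 in the control (-0.74) and -1.85 in the CD8-IFNγRKO tumor (-0.67). With the mean of cell CPM these were 0.70 with 0 *Tcf7* UMIs and -1.18 for *Tcf7* in the CD8-IFNγRKO tumor, where it was -0.93 without the deepest 8%. With 2 or more *Tcf7* UMIs they were 1.15 for genotype (0.59) and -1.26 for *Tcf7* in the control. With 10 CPM added, tumor over LN was 1.54 (3.23) and 1.94 (3.76). With 2 or more *Tcf7* UMIs as the limit, the cells with 0 stayed as they were and gave no new value.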

Other observations

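Tumor barcodes under 2000 UMIs carried more of the members, relative to all their UMIs, than those from 2000 to under 4000. The 40 members summed to 1965 CPM in 805 control barcodes under 2000 UMIs, against 603 CPM in 1045 barcodes of the next range, and to 2365 CPM in 667 CD8-IFNγRKO barcodes, against 1210 CPM in 1078. In the LN libraries the corresponding values were 212 and 192 CPM in control and 249.7 and 205 CPM in CD8-IFNγRKO mice. The highest range, 16000 UMIs or more, held the highest level of 37 members in the control tumor and 36 in the CD8-IFNγRKO tumor. How many of all genes were highest there was not counted, so these counts have no background. These ranges were chosen after seeing the data.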
